A study of Mus musculus with 8 samples.

Results

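Immediate early genes are switched on within minutes of a stimulus, and 10 of them were followed in SOL RNA of muscle-specific IRF4 knockout (MI4KO) mice and flox controls. They are the 3 NR4A nuclear receptors Nr4a1, Nr4a2 and Nr4a3, the kinase gene Sik1, the factors Fos, Junb, Atf3 and Egr1, and the regulators Btg2 and Ier2. They were chosen by name from the 24054 genes of the expression table, with the MI4KO and flox values of these same mice known, so those values are described below without any test. All 10 had 1 row each. SOL, the soleus, is a slow postural muscle of the hindlimb, and 1 library was made from each of 4 MI4KO and 4 flox mice. Mice in both groups were male C57BL/6 animals, and their labels record food as High fat diet. Flox controls carry floxed Irf4 alleles without Cre, and MI4KO mice carry these alleles together with Cre driven from the Myl1 locus, a myosin light chain gene active in skeletal muscle fibres. Endothelial cells, fibroblasts, Schwann cells and other cells between the fibres are therefore expected to keep Irf4, and whole-muscle RNA contains them. Within each group, mice are called 1 to 4 by the ascending numbers in their labels. The ages of the sequenced mice were not given in the sources used here.

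Immediate early genes need no new protein to be transcribed. Factors already bound near them, such as CREB after cAMP or calcium signals, SRF with its partners after growth factor and MAPK signals, and MEF2 after calcium signals, start transcription as soon as they are modified. Their mRNAs are short-lived, so levels fall again quickly. In skeletal muscle the NR4A receptors rise after exercise and are known for promoting genes of glucose and fatty acid use, while FOS and JUN proteins form the AP-1 complex.

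Recovered reads on genes ranged from 13417512 to 16384565 per mouse, and 3 reads correspond to values of 0.181 to 0.225. Values are CPM after the TMM scaling of the authors. With limma on log2(value + 1), 11865 genes were tested, those that reached a value of 1 in 4 or more of the 8 mice. Past an unadjusted p of 0.05 and a 1.5-fold change were 26 of them, 0.219% of the genes tested, 7 higher and 19 lower in MI4KO mice. Of the 399 genes past the p limit alone, 3.36% of those tested, 350 were lower and 49 higher in MI4KO mice, or 542 and 52 without MI4KO mouse 3. At a Benjamini-Hochberg adjusted p of 0.05, limma, edgeR and DESeq2 each called 0 genes, against 399, 375 and 248 at an unadjusted p under 0.05. MI4KO mouse 3 stood apart, with 53 tested genes that exceeded all other mice by over 1 log2 unit, where flox mouse 1 had 3 and each of the other 6 mice had 0. The fold changes of the 10 genes, the list medians and the counts of list genes past the p limit are therefore given with and without MI4KO mouse 3. Hepatocyte markers summed to 145 in flox mouse 1 and to between 3.19 and 22.1 in the other mice. Muscle fibre markers summed to 92119 to 108832 in flox mice and to 91894 to 105064 in MI4KO mice. Irf4 itself, on chromosome 13, was at 0.686, 1.46, 1.58 and 1.68 in flox mice 1 to 4 and at 0.725, 0.840, 0.266 and 1.03 in MI4KO mice 1 to 4. These Irf4 values rest on 4 to 23 reads per mouse, the groups overlapped, and the log2 fold change of -0.45 (SE 0.20) had an adjusted p of 1.0 by limma. Without MI4KO mouse 3, the mouse with 4 Irf4 reads, it was -0.31.

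Among the 10 genes, the NR4A receptors and Sik1 were highest in MI4KO mouse 3, while Egr1, Ier2, Fos and Btg2 were in the lower part of the range in the same mouse. The 4 genes highest in MI4KO mouse 3 are 40% of the 10, near the 30.9% of all genes tested that were highest in it. MI4KO mouse 1 was lowest for 7 of the 10 genes, or 70%, against 19.0% of all genes tested. Flox mouse 4 was lowest among the flox mice for 8. For 0 of the 10 genes did the MI4KO and flox values separate, where 2.07% of the genes tested did. The filter on low values was passed by 9 of the 10, all but Nr4a2. The plot of each gene by mouse shows these values.

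**Figure D1:**
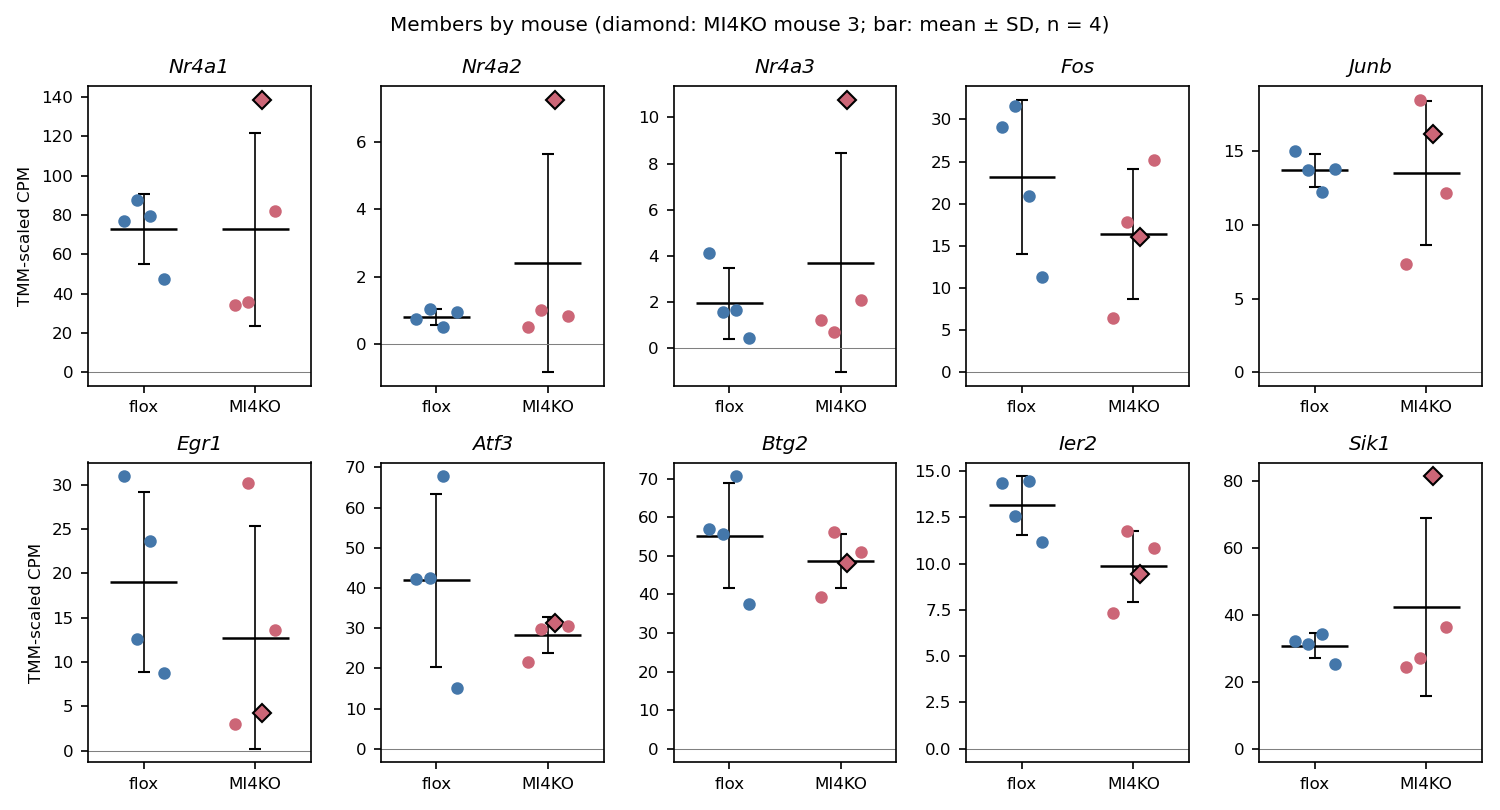
TMM-scaled CPM (vertical axis, linear, a separate scale per gene) in each of 4 flox and 4 MI4KO mice, with the group mean and SD (n = 4) as a bar and MI4KO mouse 3 as a diamond. The diamond is the highest point for Nr4a1, Nr4a2, Nr4a3 and Sik1, and the groups overlap for all 10 genes.

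Nr4a1, which encodes NUR77, lies on chromosome 15 from 101254269 to 101274795 on the plus strand (GRCm38, GENCODE M21). It was at 76.9, 87.9, 79.3 and 47.4 CPM in flox mice 1 to 4. In MI4KO mice 1 to 4 it was at 34.2, 35.9, 138.7 and 82.0. MI4KO mice 1 and 2 thus lay below every flox mouse, mouse 3 above every flox mouse and mouse 4 among them. The means were almost the same, 72.9 ± 17.6 (SD, n = 4) in flox and 72.7 ± 49.2 (SD, n = 4) in MI4KO mice, and the log2 fold change was -0.21 (SE 0.37). Without MI4KO mouse 3 the MI4KO mean of Nr4a1 was 50.7 and its log2 fold change -0.60.

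Nr4a2, which encodes NURR1, lies on chromosome 2 from 57106830 to 57124003 on the minus strand and was the lowest of the 10 genes. Its flox values were 0.748, 1.04, 0.525 and 0.947. Its MI4KO values were 0.508, 1.03, 7.25 and 0.846. The value in MI4KO mouse 3 rests on 109 reads and those in the other 7 mice on 7 to 16. The exact 95% Poisson interval of the value in MI4KO mouse 3, 5.95 to 8.74, lies above the upper bound of 1.72 for the next mouse, flox mouse 2, and such intervals cover counting error only. In MI4KO mouse 3 Nr4a2 was 8.56 times the median of the other 7 mice. Outside that mouse, the MI4KO mean of 0.796 ± 0.267 (SD, n = 3) and the flox mean of 0.815 ± 0.229 (SD, n = 4) differed by less than the spread between mice. Its log2 fold change, from a fit without the filter on low values, was 0.54 (SE 0.45), or -0.02 without MI4KO mouse 3.

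Nr4a3, which encodes NOR-1, lies on chromosome 4 from 48045153 to 48086447 on the plus strand. In flox mice it was at 4.11, 1.595, 1.65 and 0.437. In MI4KO mice it was at 1.23, 0.711, 10.8 and 2.12. MI4KO mouse 3 was highest at 6.75 times the median of the other 7 mice, flox mouse 1 was next, and flox mouse 4, with 6 reads, was lowest. The log2 fold change was 0.37 (SE 0.51) with all mice and -0.22 without MI4KO mouse 3.

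The stretches before the starts of the NR4A genes are shown because the 3 receptors moved together in MI4KO mouse 3 and because a 5-base stretch of the CREB site, called the CRE half-site, repeats in them. The 250 bases before the RefSeq start (GRCm38.p6) of the members were searched on both strands for TGACG, which reads CGTCA on the other strand. The RefSeq table held such a stretch for 7 of the 10 genes, all but Egr1, Ier2 and Sik1. Each NR4A gene had 4 half-sites. Of all 32851 promoters in the table, 0.137% had 4 or more, 3.9% had 2 or more and 17.8% had at least 1. Among the promoters of genes tested, the share with at least 1 was higher, 26.7%. The shares with 2 or more and with 4 or more were not computed for the genes tested alone. Capitals mark the half-sites, and each stretch runs 5′ to 3′ on the strand of its gene. That of Nr4a1 covers chr15:101266596-101266845 on the plus strand and lies in an intron of a longer transcript, that of Nr4a2 covers chr2:57124004-57124253 on the minus strand upstream of the gene, and that of Nr4a3 is shown for chr4:48045055-48045152 on the plus strand, because the 152 bases after it are part of an exon in GENCODE and hold its last half-site.
Nr4a1: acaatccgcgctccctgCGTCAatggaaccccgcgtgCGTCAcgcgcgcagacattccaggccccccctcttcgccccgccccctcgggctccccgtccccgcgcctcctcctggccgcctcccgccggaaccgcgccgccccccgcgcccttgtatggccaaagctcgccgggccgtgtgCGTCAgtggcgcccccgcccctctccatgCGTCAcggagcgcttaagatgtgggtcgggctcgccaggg
Nr4a2: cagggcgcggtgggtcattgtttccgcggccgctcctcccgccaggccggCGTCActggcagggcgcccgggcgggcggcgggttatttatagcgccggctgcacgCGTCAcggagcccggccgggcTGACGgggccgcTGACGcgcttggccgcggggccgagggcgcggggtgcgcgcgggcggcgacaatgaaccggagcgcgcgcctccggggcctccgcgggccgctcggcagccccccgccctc
Nr4a3: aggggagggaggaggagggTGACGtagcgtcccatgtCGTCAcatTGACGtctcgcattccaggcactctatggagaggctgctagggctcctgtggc
A match of 5 letters is a description of sequence and not evidence of binding. Whether the half-sites relate to the values in MI4KO mouse 3 was not tested. None of these half-sites overlap, and the 8-letter full site TGACGTCA was in none of the stretches of the NR4A genes.

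Sik1 encodes a kinase that phosphorylates the CRTC coactivators of CREB and class IIa histone deacetylases, and it is itself a CREB target. It lies on chromosome 17 from 31844250 to 31855804 on the minus strand. In flox mice Sik1 was at 32.3, 31.4, 34.2 and 25.5, a narrow range. In MI4KO mice it was at 24.4, 27.1, 81.6 and 36.4. MI4KO mouse 3 was at 2.60 times the median of the other 7 mice, while MI4KO mouse 1 lay just below, mouse 2 within and mouse 4 just above the flox range. The log2 fold change was 0.28 (SE 0.28) and became -0.08 without MI4KO mouse 3.

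Nr4a1, Nr4a3 and Sik1 had high correlations with each other over 8 mice, and Nr4a2, which did not pass the filter, was not compared. Between Nr4a1 and Sik1, Pearson's r of the log2 values was 0.84 over 8 mice (Spearman's rho 0.83) and 0.89 over 7 mice without MI4KO mouse 3 (rho 0.75). Between Nr4a3 and Sik1, r was 0.90 over 8 mice (rho 0.86) and 0.67 without that mouse (rho 0.79). Fos and Sik1 went from 0.23 over 8 mice to 0.83 over the other 7. Nr4a1 and Egr1, in contrast, had r = -0.02 over 8 mice and 0.41 over the other 7. These correlations describe 8 libraries that share a muscle and differ in genotype, and were not tested.

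Fos encodes the partner of JUN proteins in AP-1 and lies on chromosome 12 from 85473890 to 85477273 on the plus strand. It was at 29.1, 31.6, 20.9 and 11.3 in flox mice. In MI4KO mice it was at 6.38, 17.8, 16.1 and 25.1. MI4KO mouse 1 was lowest, and the other 3 MI4KO mice lay within the flox range, mouse 3 among them. Means of Fos were 23.2 ± 9.15 (SD, n = 4) in flox and 16.4 ± 7.72 (SD, n = 4) in MI4KO mice, and the log2 fold change was -0.52 (SE 0.36), or -0.56 without MI4KO mouse 3.

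Fos was at 0.77 times the median of the other 7 mice in MI4KO mouse 3. The stretch before Fos is also shown, and it has 2 half-sites. Whether the number of half-sites relates to the values of any mouse was not tested. The Fos stretch covers chr12:85473640-85473889 on the plus strand, upstream of the gene (RefSeq, GRCm38.p6), with the half-sites in capitals.
Fos: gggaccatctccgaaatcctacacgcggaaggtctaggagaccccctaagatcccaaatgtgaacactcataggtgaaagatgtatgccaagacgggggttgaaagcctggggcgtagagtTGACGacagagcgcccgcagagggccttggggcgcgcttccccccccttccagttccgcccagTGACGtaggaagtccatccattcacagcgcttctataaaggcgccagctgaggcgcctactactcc
The 3′ UTR of Fos (GENCODE M21) also has the 9-letter AU-rich element TTATTTATT, a motif known from unstable mRNAs, at 1 place, chr12:85477104-85477130 on the plus strand with its neighbouring bases.
Fos 3′ UTR site: gttttcaatTTATTTATTaagatggat
None of the other 9 genes has this 9-letter element in the 3′ UTR, and 8.08% of the 11033 tested genes with a 3′ UTR have it. The shorter core ATTTA was in 9 of the 10 genes, Ier2 being the exception, against 70.7% of those tested genes, with a median of 2.27 per kb in the 10 genes and 1.31 per kb in the tested genes.

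**Figure D2:**
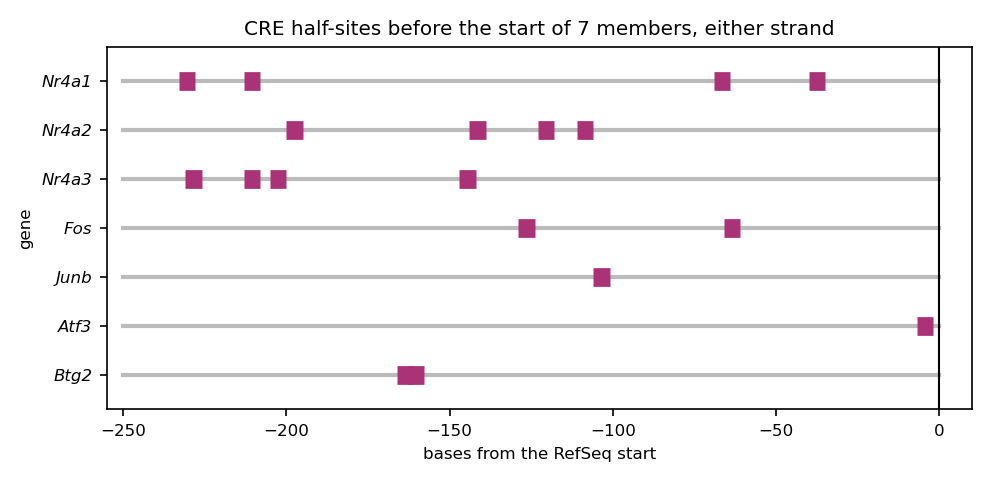
CRE half-sites on either strand (filled blocks) in the 250 bases before the RefSeq start of the 7 genes with a stretch in the table, with the distance from the start in bases on the horizontal axis. Nr4a1, Nr4a2 and Nr4a3 have 4 blocks each, Fos 2, Junb and Atf3 1 each, and the 2 overlapping blocks of Btg2 are 1 full site.

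Junb, another AP-1 gene, which is known in muscle for maintaining fibre size, lies on chromosome 8 from 84974484 to 84978718 on the minus strand. Its flox values were the tightest of the 10 genes on the log2 scale, at 15.03, 13.7, 12.2 and 13.8. Its MI4KO values were 7.33, 18.5, 16.1 and 12.1. MI4KO mice 1 and 4 lay below and mice 2 and 3 above every flox mouse, and the means of 13.7 ± 1.14 (SD, n = 4) in flox and 13.5 ± 4.89 (SD, n = 4) in MI4KO mice were nearly equal. The log2 fold change of Junb was -0.08 (SE 0.21), or -0.19 without MI4KO mouse 3.

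Atf3, a stress-induced bZIP factor that can bind CREB and AP-1 sites, lies on chromosome 1 from 191170296 to 191218039 on the minus strand. It was at 42.2, 42.6, 67.8 and 15.01 in flox mice. It was at 21.6, 29.7, 31.2 and 30.6 in MI4KO mice. Here the flox mice were spread more widely and enclosed all 4 MI4KO mice. The log2 fold change of Atf3 was -0.39 (SE 0.33), or -0.44 without MI4KO mouse 3, whose Atf3 value was 1.02 times the median of the other 7 mice.

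Btg2, an antiproliferative protein that recruits mRNA deadenylases, lies on chromosome 1 from 134075170 to 134079120 on the minus strand. Its values were 57.1, 55.6, 70.7 and 37.6 in flox mice and 39.4, 56.2, 48.3 and 50.9 in MI4KO mice. The MI4KO mice lay within the flox range, and the log2 fold change was -0.16 (SE 0.16), or -0.15 without MI4KO mouse 3. Btg2 and Atf3 had the highest correlation among the 36 pairs of the 9 tested genes, r = 0.95 over 8 mice and r = 0.95 without MI4KO mouse 3. The stretch before Btg2 is shown because it is the only one of the 7 with the full CREB site, here in capitals. This site is in 1.55% of all promoters in the table and in 2.57% of the promoters of genes tested. It covers chr1:134079156-134079405 on the minus strand, upstream of the gene (RefSeq, GRCm38.p6).
Btg2: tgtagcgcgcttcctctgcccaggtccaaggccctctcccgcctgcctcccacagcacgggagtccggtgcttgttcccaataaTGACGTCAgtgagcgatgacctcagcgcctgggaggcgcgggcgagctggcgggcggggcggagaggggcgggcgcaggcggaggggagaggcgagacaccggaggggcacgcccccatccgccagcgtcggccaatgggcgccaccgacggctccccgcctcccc
Among other motifs searched in the 7 stretches on both strands, TATAAA was in 2 of them, Nr4a2 and Fos, and in 12.4% of all promoters. The AP-1 site TGACTCA, the glucocorticoid receptor half-site TGTTCT and the CArG box of SRF were in 0 of the 7, against 4.46%, 16.1% and 1.47% of all promoters. Their absence says only that these letters are not in these 250 bases.

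Ier2, a small nuclear protein of the immediate early response, lies on chromosome 8 from 84661331 to 84662852 on the minus strand. It was at 14.3, 12.6, 14.5 and 11.2 in flox mice. It was at 7.33, 11.8, 9.44 and 10.8 in MI4KO mice. MI4KO mice 1, 3 and 4 lay below every flox mouse and MI4KO mouse 2 lay above flox mouse 4, the nearest of the 10 genes to a separation of the groups. The log2 fold change of Ier2 was -0.39 (SE 0.14), or -0.38 without MI4KO mouse 3. Fos and Ier2 had r = 0.80 over 8 mice and 0.81 without MI4KO mouse 3.

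Egr1, a zinc finger factor induced through SRF and MAPK signals, lies on chromosome 18 from 34859823 to 34864984 on the plus strand. It was the most variable of the tested genes that were not highest in MI4KO mouse 3, at 31.0, 12.6, 23.6 and 8.82 in flox mice. In MI4KO mice it was at 2.97, 30.2, 4.25 and 13.6. MI4KO mice 1 and 3 lay below every flox mouse, and MI4KO mouse 2 was close to the highest flox mouse. MI4KO mouse 3, which had the highest NR4A and Sik1 values, thus had an Egr1 value 0.31 times the median of the other 7 mice. The log2 fold change of Egr1 was -0.87 (SE 0.55), or -0.56 without MI4KO mouse 3. Egr1 and Ier2 had r = 0.88 with and without that mouse.

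Across the 10 genes, 7 had a lower and 3 a higher mean in MI4KO mice. The 3 higher ones were Nr4a2, Nr4a3 and Sik1, and without MI4KO mouse 3 all 10 means were lower. By log2 fold change the counts of lower members were also 7 and 10. Of all 11865 genes tested, 6671 were lower by log2 fold change in MI4KO mice, or 7898 without MI4KO mouse 3. The median log2 fold change of the 10 genes was -0.18, or -0.30 without MI4KO mouse 3, while the median over all genes tested was -0.01 and -0.04. Without MI4KO mouse 1 in place of mouse 3, the median of the 10 genes was 0.0032. The label numbers fall into 2 ranges, and MI4KO mouse 3 is in the upper one. In the lower range, which holds flox mouse 1 and MI4KO mice 1 and 2, 9 of the 10 genes were lower in the 2 MI4KO mice than in the 1 flox mouse, and in the upper range 5 of the 10 were lower in the 2 MI4KO mice than in the 3 flox mice by their means. On the log2 scale these counts were 9 and 4, the difference being Fos, with means of 20.6 in MI4KO and 21.3 in flox mice of the upper range. Nr4a1 was at 35.1 against 76.9 in the lower range and at 110.3 against 71.5 in the upper range. That 110.3 is the mean of MI4KO mouse 3 at 138.7 and MI4KO mouse 4 at 82.0. Whether the ranges are batches was not tested.

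**Figure D3:**
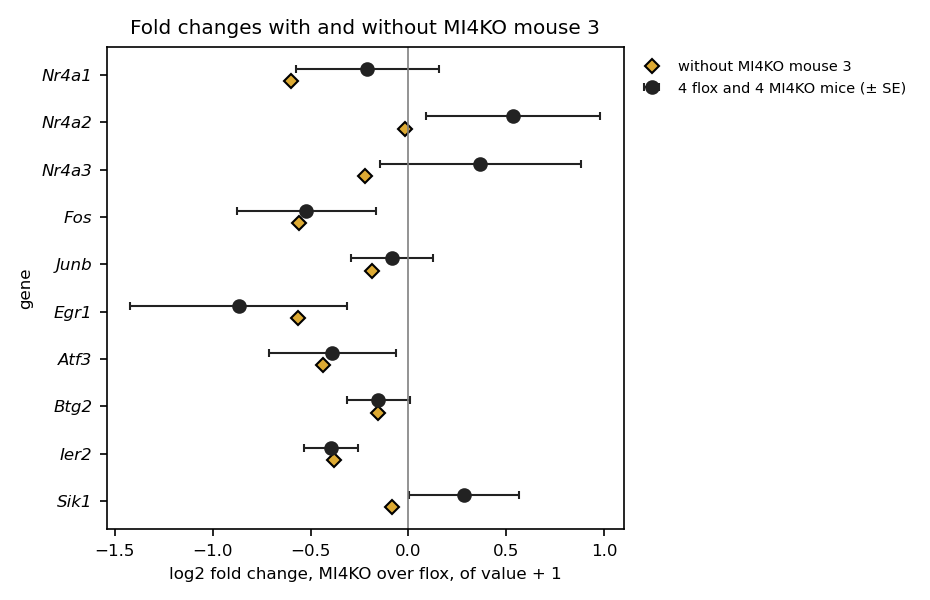
Log2 fold change of value + 1, MI4KO over flox (horizontal axis), for the 10 genes, with all mice (circles, ± SE) and without MI4KO mouse 3 (diamonds), Nr4a2 from a fit without the filter on low values. Every diamond is at or left of 0, and those of Nr4a2, Nr4a3 and Sik1 moved across 0.

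The pairs of members behaved differently with and without that mouse. Over 8 mice, r was above 0 in 31 of 36 pairs with a median of 0.45 and a range from -0.27 to 0.95. Over the 7 other mice it was above 0 in 35 of 36 pairs, with a median of 0.67. MI4KO mouse 1, below the median for every member, was among these 7 mice. Spearman's rho over them was below 0 for Junb with Nr4a1, Nr4a3, Atf3 and Sik1, at -0.11, -0.18, -0.04 and -0.07. The lowest r over 8 mice was that of Egr1 and Sik1, which had r = 0.56 without MI4KO mouse 3. The map of the genes by mouse shows each value against the median of its gene. MI4KO mouse 3 has genes well above and well below the median, and so does MI4KO mouse 2, which had the highest Junb value and the second highest Egr1 value but an Nr4a1 value below every flox mouse.

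**Figure D4:**
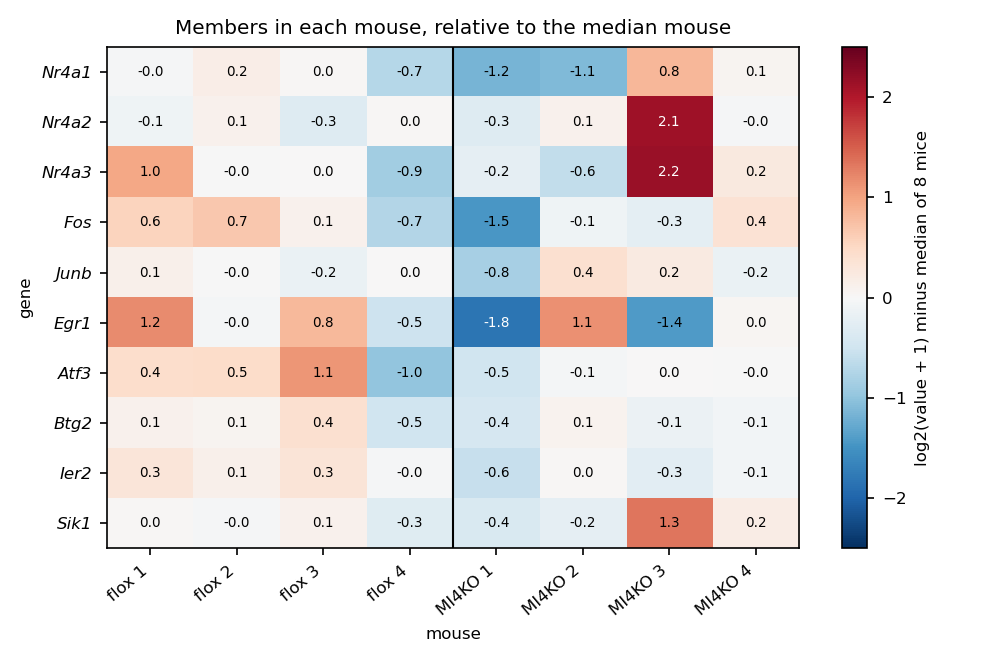
Log2(value + 1) of each gene (rows) in each mouse (columns) minus the median of that gene over 8 mice, red above and blue below the median. In MI4KO mouse 3, Nr4a1, Nr4a2, Nr4a3 and Sik1 are above and Egr1 is below the median, and MI4KO mouse 1 is below the median for all 10 genes.

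Per kb of exon (CPM divided by the length of the gene's combined exons), Nr4a1 had the highest flox level at 27.2 ± 6.57 (SD, n = 4), followed by Btg2 at 20.1 ± 4.95 and Atf3 at 19.5 ± 10.01. Fos at 11.0 ± 4.34, Ier2 at 8.63 ± 1.04, Junb at 7.57 ± 0.632 and Sik1 at 6.82 ± 0.830 came next, and Egr1 stood at 4.24 ± 2.27. Nr4a3 at 0.341 ± 0.271 and Nr4a2 at 0.218 ± 0.0611 were lowest. Neighbours from Nr4a1 to Egr1 in this order overlapped in their ranges over mice, as did Nr4a2 and Nr4a3, whereas the highest flox level of Nr4a3, 0.719, lay below the lowest of Egr1, 1.97. In MI4KO mouse 3 the order changed at several places, with Sik1 at 18.04 per kb above Btg2 at 17.6, and both Nr4a2 at 1.94 and Nr4a3 at 1.88 above Egr1 at 0.949.

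Of 45 other immediate early genes, 36 passed the filter on low values. Past an unadjusted p of 0.05 in limma were 4, or 11.1%, and all 4 were lower in MI4KO mice, as were 350 of the 399 among all genes tested. Of the 4, Klf2 was also past 1.5-fold. Over all genes tested, 3.36% were past the p limit and 0.219% past both. The 4 became 6 without MI4KO mouse 3 (Cyr61, Dusp6, Klf2, Dusp1 and Zfp36 lower and Rrad higher), 6 without MI4KO mouse 4 and 0 without flox mouse 3. Klf2, a flow-responsive factor of endothelial cells, was at 48.4, 62.6, 76.5 and 60.3 in flox mice and at 16.5, 28.2, 41.6 and 76.2 in MI4KO mice, with a log2 fold change of -0.79 (SE 0.33, adjusted p = 1.0 by limma, exact two-sided permutation p = 0.171), or -0.87 without MI4KO mouse 3. MI4KO mouse 4 had nearly the highest Klf2 value and the groups overlapped, and edgeR on recovered reads did not place Klf2 past the limits. Nor was it past both limits when MI4KO mouse 1 or 2 or flox mouse 2, 3 or 4 was left out. Cyr61, a matricellular protein of the immediate early response, had a log2 fold change of -0.42 (SE 0.15), Ier5 of -0.33 (SE 0.15) and Dusp6, a phosphatase of ERK, of -0.27 (SE 0.11), each at an adjusted p of 1.0 by limma. Without MI4KO mouse 3 the log2 fold changes of Cyr61, Ier5 and Dusp6 were -0.37, -0.24 and -0.28, and Ier5 was no longer past the p limit. The median log2 fold change of the 36 genes was -0.11, or -0.17 without MI4KO mouse 3.

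Of the 36 genes, 13 were highest in MI4KO mouse 3, 36.1% against 30.9% of all genes tested, and 6 were lowest in it, 16.7% against 13.3%, so both shares were near those of all genes. Among the genes singled out after their values were seen, Maff was at 27.7 in MI4KO mouse 3 and at 6.46 to 9.92 in the other 7 mice. Nfil3 was at 84.6 against 19.3 to 39.6, and Cebpb at 251.2 against 103.4 to 146.5. Rrad, a small GTPase of muscle, was at 2.66 there and at 13.8 to 49.2 in the other mice. Egr3, a relative of Egr1 that did not pass the filter, had its lowest value of 0.066 there as well. That value rests on 1 read, against 7 to 23 reads in the other mice. Jun, at 132.1 in that mouse and 118.8 to 177.1 in the other mice, was within the range. Of the 36 genes, 18 were lowest in MI4KO mouse 1, against 19.0% of all genes tested.

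Among the factors that act before these genes, the CREB arm (19 genes), the SRF and MAPK arm (13 genes) and the MEF2 and calcium arm (15 genes) all passed the filter, and 0 of them were past both limits. Past the p limit alone were 3 of the 47, or 6.38% against 3.36% of all genes tested, and all 3 were lower in MI4KO mice, the side of 350 of the 399 such genes overall. Without MI4KO mouse 3 they were 5 of 47, beside 5.01% of all genes tested. Without MI4KO mouse 4 they were 5 as well, with Camk2a and Crtc3 added, beside 5.21% of all genes tested. Elk3, a partner of SRF, was at 21.0, 20.4, 19.8 and 19.8 in flox mice and at 13.4, 18.5, 14.4 and 18.4 in MI4KO mice, with a log2 fold change of -0.32 (SE 0.11). Elk3 and Hdac9 were the upstream genes whose groups did not overlap, 2 of 47 where 2.07% of all genes tested did not. The class IIa deacetylase genes Hdac9 and Hdac7, which restrain MEF2, had log2 fold changes of -0.34 (SE 0.11) and -0.26 (SE 0.09). All 3 had an adjusted p of 1.0 by limma. The CREB coactivator genes Crtc1 and Crtc3, the CREB-arm genes with the largest fold changes, had log2 fold changes of -0.22 and -0.21 and did not pass the p limit. Nor did Mkl1, at -0.18, Mapk8, at 0.15, and Hdac4, at -0.15. Without MI4KO mouse 3, Crtc1 at -0.31 and Mapk8 at 0.19 were past the unadjusted p limit. The medians of the 3 lists were -0.04, -0.03 and -0.02, beside -0.01 over all genes tested, and -0.06, -0.04 and 0.02 without MI4KO mouse 3, beside -0.04.

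Among 15 partners of NR4A receptors and metabolic genes reported to follow NUR77 in muscle, 0 passed the p limit, and the median log2 fold change was 0.01, or -0.07 without MI4KO mouse 3, when 1 of the 15 passed it, Ucp3, which was lower in MI4KO mice. In MI4KO mouse 3, however, 12 of the 15 had their highest value, 80.0% against 30.9% of all genes tested. Lpin1, a phosphatidate phosphatase and coactivator, was at 546.6 there and at 173.5 to 242.2 in the other 7 mice. Rxrg, a retinoid X receptor that can pair with NUR77 and NURR1, was at 47.1 against 21.2 to 26.6. Fbp2, the muscle fructose bisphosphatase, was at 45.2 against 25.1 to 40.7. The list median was 0.25 above the median of the other 7 mice on the log2 scale in MI4KO mouse 3, where that of all genes tested was 0.07. Single genes of the list ranged from 0.07 to 1.59 above it, and Adipor2, Slc2a4 and Cd36 were at 0.09, 0.13 and 0.19. This list too was chosen with earlier results of these data known. Whether its values relate to the NR4A values of that mouse was not tested.

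Of 12 glucocorticoid-responsive genes, all 12 were highest in MI4KO mouse 3, against 30.9% of all genes tested. In that mouse 5 of them (Fkbp5, Mt1, Mt2, Ddit4 and Cebpd) exceeded all other mice by over 1 log2 unit, as did 53 of all genes tested. This list was chosen with earlier results of these data known, so the counts are a description. Fkbp5, a chaperone of the glucocorticoid receptor, was at 158.6 in that mouse and at 19.4 to 31.2 in the other 7. The metallothionein genes Mt1 and Mt2 were at 190.7 against 17.8 to 26.3 and at 59.6 against 1.67 to 7.63. In the group comparison 0 of the 12 passed the p limit, with a median log2 fold change of 0.18, which became -0.17 without MI4KO mouse 3, when 1 of the 12, Per1, passed the p limit and was lower. The median of these genes in MI4KO mouse 3 was 1.23 above that of the other 7 mice, where the 10 genes followed here had 0.12. Errfi1, at 60.0 in that mouse, is on this list and on that of the other immediate early genes. Whether the NR4A and Sik1 values of this mouse belong to the same response was not tested.

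**Figure D5:**
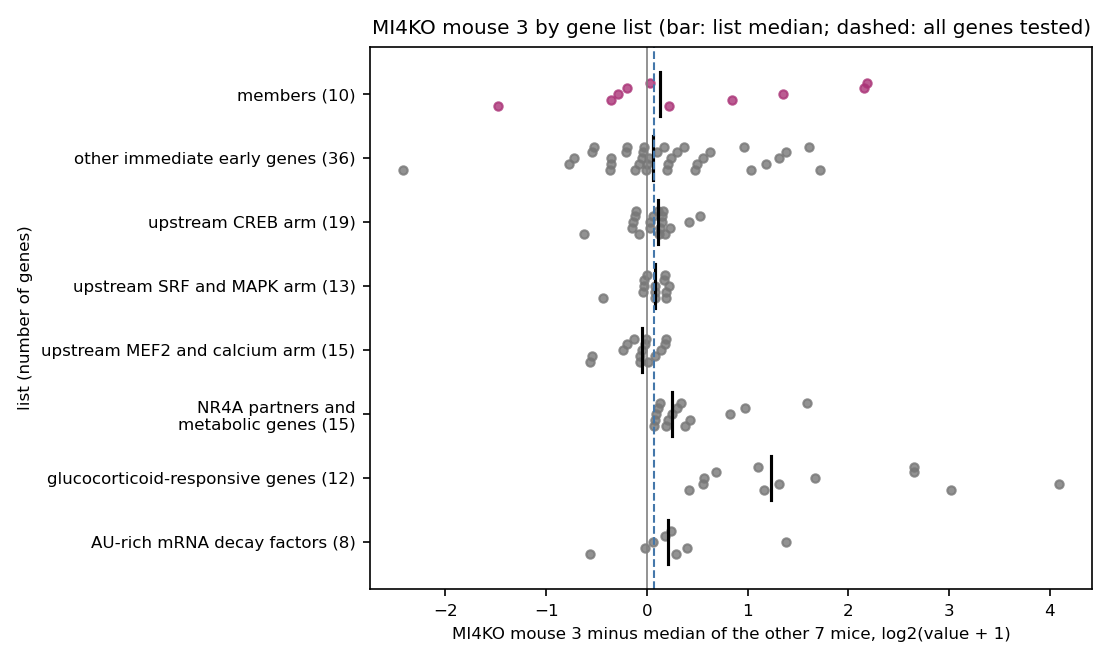
Difference between MI4KO mouse 3 and the median of the other 7 mice on the scale of log2(value + 1) (horizontal axis) for every gene of 8 lists (points), with the list median as a bar and the median of all genes tested as a dashed line. All 12 glucocorticoid-responsive genes are right of 0, and the 10 genes followed here spread from -1.47 to 2.18.

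Of 8 factors that bind AU-rich mRNAs, 0 passed the p limit with all mice. Zfp36, which promotes the decay of such mRNAs, was at 45.6 in MI4KO mouse 3 and at 12.5 to 27.2 in the other mice, with a log2 fold change of -0.10 (SE 0.32). Without MI4KO mouse 3 it was at -0.48 and past the unadjusted p limit, lower in MI4KO mice. It counts among the other immediate early genes as well. Zfp36l1 and Tia1, the other genes of this list with the largest fold changes, had log2 fold changes of -0.23 (SE 0.13) and 0.07 (SE 0.13), or -0.11 and -0.04 without MI4KO mouse 3. Zfp36l1 was past the p limit without MI4KO mouse 2 or 4. The median of the 8 genes was -0.02, or -0.07 without MI4KO mouse 3.

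Sums of cell type markers differed between mice, and their relation to the 10 genes was not the same in each mouse. MI4KO mouse 1, lowest for 7 of the 10 genes, also had the lowest sum for 6 of 10 marker lists, namely endothelial, fibroblast, adipocyte, smooth muscle and pericyte, hepatocyte and erythroid markers. Flox mouse 4, lowest of the flox mice for 8 of the 10 genes, had the lowest sum for 1 list, neutrophil. Its fibroblast sum of 418.7 was the highest of all mice. Endothelial markers summed to 237.4 in MI4KO mouse 1, to 314.6 to 328.1 in the other MI4KO mice and to 309.5 to 368.4 in flox mice. Smooth muscle and pericyte markers summed to 165.4 in MI4KO mouse 1 and to 238.7 to 309.3 in the other 7 mice. In MI4KO mouse 3, neutrophil markers summed to 4.32, against 0.146 to 0.423 in the other mice. Only 3 of the 6 neutrophil markers were highest in that mouse, with S100a8 at 24 reads and S100a9 at 27. Of the 6 markers, 5 were under 3 reads in each of the other 7 mice. Macrophage markers (7 of 8 with a row) summed to 59.7 in MI4KO mouse 3 and to 41.5 to 56.0 in the others, and 3 of the 7 were highest in it. Its fibroblast, adipocyte and Schwann cell sums were 285.3, 17.6 and 91.0, against 255.8 to 418.7, 10.7 to 47.2 and 96.8 to 133.0. The part of these cells in the values of the 10 genes was not tested, and in whole muscle fewer cells of a type and less RNA per cell cannot be told apart.

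The genes whose pattern over 8 mice was most like the mean profile of the 9 tested members were Rad21, Crip2, Elf1, Csnk1e and Rsu1, with Pearson's r of 0.96, 0.96, 0.95, 0.95 and 0.95 among 11856 genes compared. Their Spearman's rho lay between 0.79 and 0.98. Rad21, a cohesin subunit, ranged from 59.9 to 69.0 and was lowest in MI4KO mouse 1, as were the other 4. The least alike were Rcor3, Gpnmb and Paxbp1, with r of -0.96, -0.95 and -0.95, each highest in MI4KO mouse 1. Without the 2 mice farthest from the median profile, flox mouse 4 and MI4KO mouse 1, r fell to between 0.63 and 0.87 for the first 5 and lay between -0.76 and -0.46 for the other 3. These r values are the extremes of many genes over 8 mice and describe likeness only.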

How the data were processed

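RNA-seq values of SOL from 4 MI4KO and 4 flox mice were analysed. Per the paper's methods and the submitters' processing notes, stranded mRNA libraries were read as single reads, demultiplexed with bcl2fastq 2.17, mapped to UCSC transcripts with Bowtie2 2.1.0 (build mm10), quantified with RSEM 1.2.15 and scaled by TMM. The deposited signal is 1 TMM-scaled CPM count value for each of 24054 genes and each mouse. Beside it, the authors give columns of their own edgeR comparison (a score of signed fold change, a p-value and its FDR), and none of these was used. 27 symbols had been turned into dates and 6086 genes had no read.

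Each value was a whole multiple of 1 step per mouse, and 100% of values came out as whole reads within 0.05 of a read. Counts are of reads without molecular identifiers, so read totals, floors and intervals cover counting error only. limma 3.58.1 (R 4.3.3) took log2(value + 1), with the prior following mean expression, for genes that reached 1 in 4 or more mice. Fold changes on this scale understate changes of low genes. edgeR 4.0.16 (quasi-likelihood) and DESeq2 1.42.0 were run on recovered reads, and edgeR called 73 genes at an unadjusted p under 0.05 and 1.5-fold, the limits of the study. The fits were checked on simulated counts. Exact Poisson intervals used scipy 1.17.1.

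The members and lists were chosen with earlier results of these data known. Genes of the lists are named where their unadjusted p was under 0.05, filled up to 3 per list by the largest absolute fold change, except 1 that is not reported here. The values of Maff, Nfil3, Cebpb, Rrad, Egr2, Egr3, Jun, Ddit4, Cebpd, Errfi1, Plk3, Dusp1, Ucp3, Per1 and Camk2a were known when they were picked. The profile of the members is the mean of their z-scored log2 values, and the genes with the 5 highest and 3 lowest correlations with it are named. Positions are from GENCODE M21 on GRCm38, the assembly that mm10 names, looked up by symbol, and promoter sequences from the RefSeq table of GRCm38.p6. Alternatives were another pseudocount, no filter, median-of-ratios scaling, no trend, a covariate for the range of mouse numbers, both count tools, each mouse left out, and, added after seeing the data, MI4KO mouse 3 and flox mouse 1 left out together.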

Additional observations from a re-analysis of the deposited data

Results flagged for a closer look

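In groups of 4 mice, a mouse was marked where its gap to the next mouse passed Dixon's limit for 4 values on the log2 scale, and 66 groups of the 10 genes, the genes named from the lists and Irf4 were examined. By chance about 1 in 20 groups, here 3.3, would be marked, and 3 were. Among the 10 genes, the Atf3 value of 21.6 in MI4KO mouse 1 lay apart below the other MI4KO mice at 29.7 to 31.2. The Mt1 value of 190.7 in MI4KO mouse 3 lay apart above the other MI4KO mice at 17.8 to 24.96. The Hdac7 value of 19.7 in flox mouse 1 lay apart below the other flox mice at 22.6 to 23.2.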

How the results depend on the processing

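No paired analysis was possible because the mouse numbers are not shared between the groups. Over 16 alternatives, 156 of 156 member values moved by less than the spread between mice. Much of this count was fixed in advance. Leaving mice out cannot move the group means by more than that spread, and dropping the filter or the trend leaves the fold changes unchanged. For those settings the count says nothing about stability. The sign of Nr4a1, Nr4a2, Nr4a3, Junb and Sik1 was not stable. The median of the 10 genes kept its sign in all but 1 of the 16 alternatives. It ranged from -0.36 to 0.0032 when each mouse was left out, the last without MI4KO mouse 1. Nr4a2 is missing from the fits with another scaling, the covariate or a count tool.

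Genes past both limits numbered 26, of which 7 were higher. They numbered 41 with a pseudocount of 0.5, 73 with edgeR, 51 with DESeq2 and 41 without both MI4KO mouse 3 and flox mouse 1, and from 19 to 58 with each mouse left out, the most without MI4KO mouse 4. The cause was not tested. Higher genes were 20 of 73 with edgeR and 19 of 51 with DESeq2. Klf2, the 1 other immediate early gene past both limits, left 0 without the filter on low values, without the trend, with the covariate and with edgeR, and the count ranged from 0 to 2 with each mouse left out, 2 being Klf2 and Rrad without MI4KO mouse 3. Leaving out flox mouse 2, 3 or 4 or MI4KO mouse 2 each gave 0, and with DESeq2 or without MI4KO mouse 1 the 1 gene was Socs3 instead. Of upstream and downstream genes, 0 were past both limits, against 2 with edgeR (Mt1 and Mt2) and 1 with DESeq2 (Mt2), and 0 in every case with a mouse left out. Depth limits Nr4a2, with 7 to 16 reads outside MI4KO mouse 3, Irf4, with 4 to 23 reads, Egr2, with 4 to 16, and Egr3, with 1 to 23.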

Other observations

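Beyond the comparison, Egr2, a zinc finger factor related to Egr1, was at 0.935, 1.11, 0.825 and 0.874 in flox mice and at 0.290, 0.646, 0.532 and 0.484 in MI4KO mice. Its values rest on 4 to 16 reads per mouse and it did not pass the filter on low values. Its groups did not overlap, where 2.07% of the genes tested did not. Egr2 was singled out after its values were seen, so no test is given. Plk3, a stress-responsive kinase gene, was at 1.75, 1.73, 1.58 and 1.38 in flox mice and at 0.218, 0.711, 2.79 and 2.12 in MI4KO mice, with mice 1 and 2 below and mice 3 and 4 above every flox mouse, the order seen for Nr4a1 in MI4KO mice 1 to 3. It was also chosen after its values were seen. Dusp1, a MAPK phosphatase gene, was at 57.2 and 59.2 in MI4KO mice 1 and 2, at 98.0 and 92.6 in mice 3 and 4 and at 83.1 to 96.0 in flox mice.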
